A study of Drosophila melanogaster with 43 samples.

Results

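The genes described here encode translation initiation and elongation factors. They were taken as every gene symbol that begins with eIF, Ef1 or Ef2b, and eIF4G forms were left out. The tables of S2 cells listed 31 such genes among 13792, and the tables of fly heads listed 32 symbols among 14410 features. All 31 genes of the S2 tables were in the head tables too, and eIF-2gamma was used in the heads alone. A mean of at least 1 on the deposited scale was required for a test, which left 25 genes in S2 cells and 28 in heads. The other 6 and 4 genes are given by their levels.

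Initiation factors bring the initiator tRNA, the small ribosomal subunit and the mRNA together at the start codon. The factor eIF2 carries the tRNA, eIF2B recharges eIF2 with GTP, eIF3 is the scaffold on the small subunit, and the eIF4 factors bind the cap and open the leader of the mRNA. In elongation, eEF1A brings aminoacyl-tRNA to the ribosome, eEF1B recharges eEF1A, and eEF2 moves the ribosome along by one codon. In vertebrates many mRNAs of these factors start with a run of pyrimidines, as ribosomal protein mRNAs do, and growth signalling controls their translation as a set.

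The first system was the S2 line, cultured Drosophila cells with features of blood cells, grown at 27 °C. The 2 Orb2B libraries came from transfected cells that carry Orb2B, a form of the fly CPEB protein Orb2, and that received 250 µM copper sulfate and 300 µg/ml hygromycin B. The 2 background libraries came from untransfected cells with 250 µM copper sulfate. Hygromycin B, the drug used to select transfected cells, is itself an inhibitor of translation elongation, and the labels give it for the Orb2B cells alone. Orb2B, transfection and the drug cannot be told apart. The second system was extract of heads of flies of the genotype Orb2 WT-GFP, kept at 25 °C, after precipitation with biotinylated isoxazole (b-isox). That compound pulls down proteins with low-complexity domains and the RNA bound to them. The RNA of the pellet was compared with the RNA that stayed in the supernatant, in 6 libraries of each. Gene names were given in replicates 1 to 4, which were tested.

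Values are RPKM in S2 cells and FPKM in heads, each divided by a scaling factor of its library unless they are called deposited. Both are given per length of the gene, so levels of different genes can be set side by side. In the Orb2B libraries orb2 itself was at 2509 and 2850 RPKM as deposited, against 7.50 and 8.73 RPKM in background. Orb2B libraries had 6670 and 6868 genes at 1 RPKM or more, against 7129 and 7093 in background. Steps between the lowest RPKM values put the reads of Orb2B replicates 1 and 2 at 0.982 and 1.66 times, and those of background replicate 2 at 0.783 times, the reads of background replicate 1. The depth of the head libraries is unknown. Markers of blood cells were lower in Orb2B cells for 4 of 7 tested, where 19.9% of all genes tested were. Hml had at most 0.159 RPKM in Orb2B and at least 5.50 RPKM in background as deposited. The summed deposited level of the blood cell markers was 584 to 891 RPKM in Orb2B libraries and 1018 to 1258 RPKM in background. Most of that sum was vkg, with 481 and 727 RPKM in Orb2B and 799 and 1001 RPKM in background, and vkg was not among the 4. Of 34 markers of 8 cell types tested in heads, 2 neuronal ones (elav and Syt1) were higher and the fat body gene Yp1 was lower in pellets. Over all head features 1.97% were higher and 1.77% lower. The 4 neuronal markers summed to 295 to 423 deposited FPKM in pellets and 104 to 173 in supernatants. On that scale the median feature too was higher in pellets, by 0.87 in log2. Once scaled, n-syb, the largest part of the sum, had 143 ± 38.9 FPKM in pellets and 158 ± 38.1 FPKM in supernatants (SD, n = 4 each). Neither n-syb (log2 difference -0.15) nor brp (0.79) passed the test. Testis markers had values in the head libraries too, and the 5 listed summed to 526 to 615 deposited FPKM in pellets and 255 to 382 in supernatants. The part of all these markers in the results below was not tested. In bulk RNA of S2 cells, fewer cells of a type and less RNA per cell cannot be told apart. In heads the pellet and the supernatant are fractions of extract, so marker differences there are differences of RNA between fractions. The labels do not say whether replicates were separate cultures or groups of flies, so the tests see the spread between libraries, whatever its source.

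The members spanned the full range of expression. In S2 cells Ef1alpha48D, the gene of the main eEF1A, led with 4152 ± 71.1 RPKM in Orb2B and 4953 ± 675 RPKM in background cells (SD, n = 2 each). Next stood Ef1beta, an exchange factor subunit, with 1628 ± 300.1 RPKM in Orb2B and 2033 ± 492 RPKM in background cells. Ef1gamma, its partner, had 1456 ± 169 RPKM in Orb2B and 1850 ± 321 RPKM in background cells, within the spread of Ef1beta. The helicase gene eIF-4a (1034 ± 44.2 and 1276 ± 126 RPKM) and the translocase gene Ef2b (731 ± 1.57 and 1584 ± 254 RPKM, Orb2B given first in both) changed places between the groups. All members together held 1.45% and 1.57% of the summed RPKM in the Orb2B libraries, against 1.82% and 1.85% in background.

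In heads the order differed, with Ef1beta and eIF-4a on top. Ef1beta averaged 899 ± 186 FPKM in pellets and 2234 ± 338 FPKM in supernatants (SD, n = 4 each). The helicase gene eIF-4a averaged 825 ± 111 FPKM in pellets and 2104 ± 386 FPKM in supernatants, so the pair did not differ beyond their spread in either fraction. Ef1alpha48D averaged 186 ± 75.6 FPKM in pellets and 667 ± 373 FPKM in supernatants, below the means of Ef2b and Ef1gamma. Ef1gamma, at 233 ± 47.1 FPKM in pellets and 680 ± 58.7 FPKM in supernatants, lay within that spread. Ef2b, at 364 ± 59.8 FPKM in pellets and 1033 ± 421 FPKM in supernatants, lay within it in supernatants. The members held 0.511% to 0.606% of the summed deposited FPKM of named features in pellets, against 0.719% to 1.01% in supernatants. Levels of the S2 and head tables come from different processing and were not tested against each other.

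Several members have a paralog, and the copies differed widely in level. The second eEF1A gene, Ef1alpha100E, was at 0.123 and 0.301 RPKM in Orb2B and at 0.722 and 0.821 RPKM in background cells. Ef1alpha48D therefore exceeded it by at least 5454 times in every S2 library. In heads Ef1alpha100E reached 8.25 to 38.4 FPKM in pellets and 14.4 to 40.1 FPKM in supernatants. The ratio of Ef1alpha48D to Ef1alpha100E was 5.45 to 14.8 in pellets, against 14 to 77.2 in supernatants, and these ranges touch. The copies are similar in sequence, so reads may have been split between them in the deposited values.

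The cap-binding protein is encoded by eIF-4E and by the paralogs eIF4E-3 to eIF4E-7, several of which are known from the testis. As deposited, eIF-4E was at 75.6 and 94.1 RPKM in Orb2B and at 115 and 108 RPKM in background cells. In S2 cells eIF4E-3 and eIF4E-5 were listed at 0 in all 4 libraries, and eIF4E-4 and eIF4E-7 were above 0 in 1 library each, at 0.0350 and 0.0372 RPKM as deposited. Only eIF4E-6 had a value in all 4 libraries, from 0.541 to 1.01 RPKM. In head replicates 1 to 4 the paralogs were also low. Testis markers had values in these libraries too, and which tissue the paralog reads came from was not tested. The summed deposited FPKM of eIF4E-3, eIF4E-4, eIF4E-6 and eIF4E-7 was 5.00 to 6.92 in pellets, against 2.90 to 4.87 in supernatants. The deposited value of the eIF-4E feature, which includes the neighbour CG4022, was 87.2 to 139 in pellets, against 59.1 to 86.8 in supernatants. The feature of eIF4E-5 and CG32365 had 1.28 to 19.7 FPKM in pellets and 3.78 to 6.40 FPKM in supernatants. It was a joined entry in some libraries and a sum of separate entries in others, so these values are not on the same scale. Where eIF4E-5 had an entry of its own, that entry had 0.739 and 1.28 FPKM in 2 pellets and 0.447 to 1.34 FPKM in 3 supernatants.

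Some other members had low values or none. Exact zeros in the head tables are not read as absence, since Gcn2 was listed at 0 in all 8 head libraries too. The zeros of eIF-4B and eIF2B-epsilon were deposited with the status OK, so whether such estimates failed is not known. The helicase cofactor eIF-4B was listed at 0 in all 8 head libraries, while S2 cells had it at 2.24 to 8.22 RPKM. The catalytic subunit eIF2B-epsilon was listed at 0 in all head libraries but supernatant replicate 1, where it had 1.42 FPKM. An unnamed locus over that gene had 10.4 FPKM in the pellet and 7.35 FPKM in the supernatant of replicate 5, as deposited. The exon junction helicase eIF4AIII was at 38.0 to 54.9 RPKM in S2 cells and at 0.928 to 3.13 FPKM in head replicates 1 to 4. The unnamed locus over it was higher in replicate 5, at 13.7 FPKM in the pellet and 21.0 FPKM in the supernatant as deposited. As deposited, eIF-4a exceeded eIF4AIII by 21.1 to 31.3 times in S2 libraries and by at least 229 times in the libraries of head replicates 1 to 4.

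The first comparison asked which of these genes differed between Orb2B and background S2 cells. The changes went both ways. The genes eIF-4B, eIF6 and eIF2B-delta were higher in Orb2B cells, and Ef2b, eIF5B and eIF-3p66 were lower, by 1.5 to 2.48 times each. Ef1alpha48D and the other abundant elongation genes apart from Ef2b did not pass the test. Of 25 members tested, 3 were higher and 3 lower (limma, Benjamini-Hochberg adjusted p under 0.05), while over all 7072 genes 17.0% were higher and 19.9% lower. In either direction 6 of 25 members and 36.9% of all genes were called, so the members' count did not exceed the background. Their median log2 difference was -0.05, against -0.00 over all genes tested. Libraries of the groups did not overlap for 15 members, 10 lower and 5 higher in Orb2B cells, against 36.6% and 36.5% of all genes tested. With 2 libraries per group such a gap is common and is no call.

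**Figure D1:**
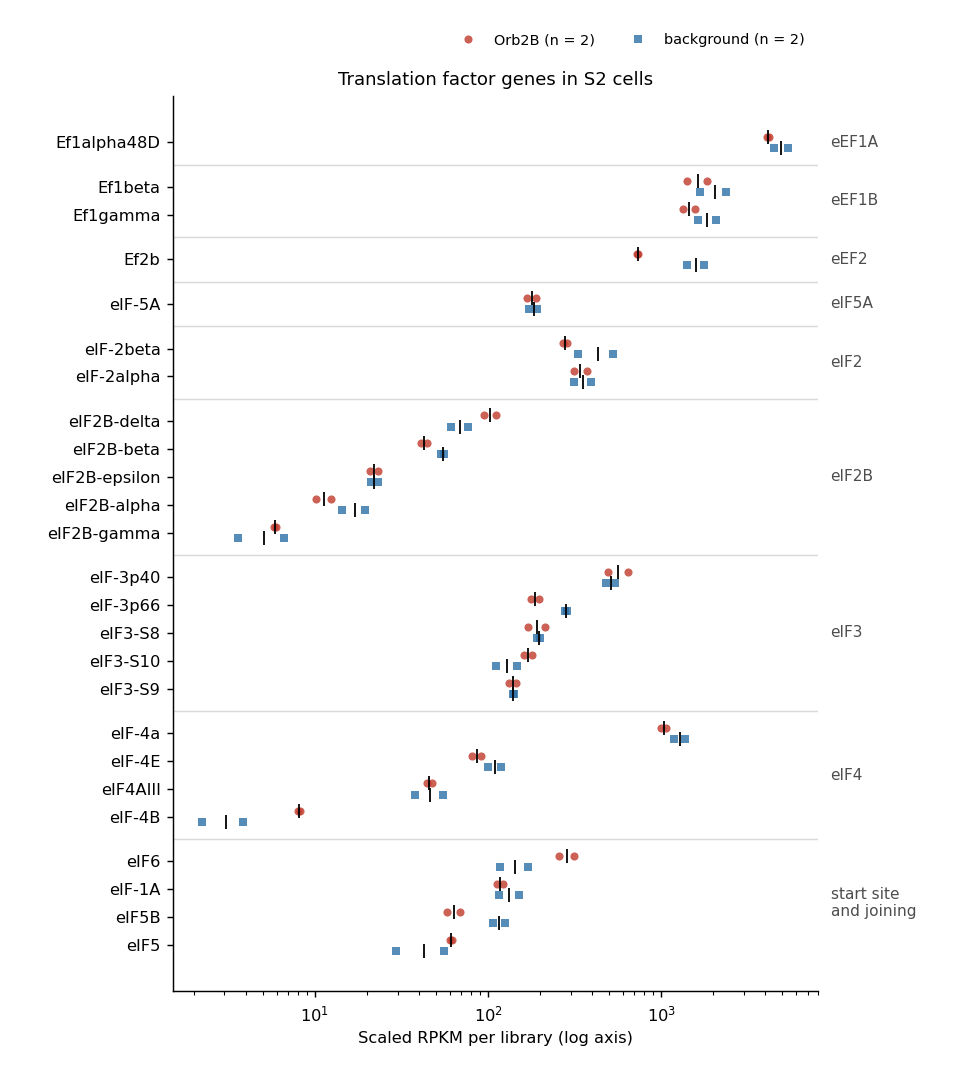
Scaled RPKM (log axis) of the 25 tested translation factor genes in each S2 library, with Orb2B libraries as circles above background libraries as squares and the mean of each group as a vertical bar. The genes are ordered by role and level, and Ef2b, eIF-4B, eIF5B and eIF6 are among those whose groups stand apart.

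Among the tested elongation factors Ef2b, the gene of the translocase eEF2 (chr2L:21677900-21682116, dm3), was the one that changed. Ef1alpha100E, below the level for a test, was called lower in Orb2B cells when no filter was set (log2 difference -0.85, limma adjusted p = 0.0304). Ef2b had 729 and 732 RPKM in Orb2B cells, against 1764 and 1404 RPKM in background cells. The groups did not overlap, and the log2 difference was -1.11 (SE 0.22, limma adjusted p = 0.00794). Ef1alpha48D (chr2R:7778901-7783267) had 4102 and 4203 RPKM in Orb2B cells, against 5430 and 4476 RPKM in background cells. Both Orb2B libraries lay below both background libraries, yet the log2 difference of -0.25 (SE 0.29, adjusted p = 0.527) was within the spread, and its sign turned under quantile normalization. Ef1beta had 1840.3 and 1416 RPKM in Orb2B cells, against 2381 and 1685 RPKM in background cells, and these overlapped (log2 difference -0.31, adjusted p = 0.412). The gene eIF-5A, whose product helps ribosomes through difficult codons and is now also named eEF5, had 169 and 188 RPKM in Orb2B cells, against 193 and 173 RPKM in background cells, with no separation (log2 difference -0.04, SE 0.18).

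The ternary complex and its exchange factor gave mixed values. The eIF2 subunit gene eIF-2beta had 287 and 272 RPKM in Orb2B cells, against 529 and 331 RPKM in background cells. The groups did not overlap, but background replicate 1 stood well above replicate 2, and the adjusted p was 0.102 (log2 difference -0.58, SE 0.25). The subunit eIF-2alpha, which carries the regulatory phosphorylation site, differed by -0.05 (SE 0.20). Of the 5 eIF2B subunits 1 was called. The regulatory subunit eIF2B-delta (chr2R:19274016-19276575) had 112 and 94.8 RPKM in Orb2B cells, against 76.7 and 61.2 RPKM in background cells (log2 difference 0.58, SE 0.19, adjusted p = 0.0463). The other regulatory subunits had log2 differences of the opposite sign. For eIF2B-alpha the values were 10.1 and 12.4 RPKM in Orb2B cells, against 19.5 and 14.4 RPKM in background cells (log2 difference -0.56, adjusted p = 0.0817). For eIF2B-beta the log2 difference was -0.36 (adjusted p = 0.123). The catalytic subunits eIF2B-gamma and eIF2B-epsilon differed by 0.24 and -0.01.

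Of the 5 eIF3 subunits among the members, eIF-3p66 was lower. This gene (chr3R:19505767-19508039, now eIF3d1) encodes the subunit that in human cells can bind the cap of certain mRNAs. It had 197 and 178 RPKM in Orb2B cells, against 285 and 279 RPKM in background cells (log2 difference -0.59, SE 0.17, adjusted p = 0.0319). The most abundant of these 5, eIF-3p40, had 642 and 490 RPKM in Orb2B cells, against 542 and 482 RPKM in background cells, with overlap. The core subunits eIF3-S8, eIF3-S9 and eIF3-S10 had log2 differences of -0.04, -0.02 and 0.40, and none passed. Further eIF3 subunits carry other names and were read from the same fit, chosen as parts of the complex with their values known. Of 4 tested, Int6, CG9769 and Adam (eIF3e, eIF3f1 and eIF3j) were lower in Orb2B cells, where 19.9% of all genes were. Int6 had the largest difference of these, with 120 ± 1.0 RPKM in Orb2B and 322 ± 21.2 RPKM in background cells (SD, n = 2 each, log2 difference -1.42, adjusted p = 0.000973). Trip1 (eIF3i) did not pass, with a log2 difference of -0.15.

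The eIF4 group held the largest increase. The gene eIF-4B, which assists the helicase, had 7.95 and 8.22 RPKM in Orb2B cells, against 3.86 and 2.24 RPKM in background cells (log2 difference 1.31, SE 0.27, adjusted p = 0.00779). It lay among the lowest of the tested members in level. The abundant helicase gene eIF-4a had 1065 and 1003 RPKM in Orb2B cells, against 1187 and 1365 RPKM in background cells. Both Orb2B libraries were lower, with a log2 difference of -0.30 that did not pass (SE 0.22, adjusted p = 0.313). The cap-binding gene eIF-4E had 81.0 and 90.6 RPKM in Orb2B cells, against 119 and 99.8 RPKM in background cells (log2 difference -0.35, adjusted p = 0.164). The exon junction helicase eIF4AIII differed by 0.01.

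Factors of start site choice and subunit joining moved in opposite directions. The gene eIF6 (chr2R:19736769-19737822), whose product keeps the large ribosomal subunit from joining too early, had 313 and 258 RPKM in Orb2B cells, against 169 and 118 RPKM in background cells (log2 difference 1.01, SE 0.23, adjusted p = 0.0118). The gene eIF5B (chr3L:3428651-3461200), whose product is the GTPase that promotes joining, had 58.3 and 69.2 RPKM in Orb2B cells, against 124 and 106 RPKM in background cells (log2 difference -0.85, SE 0.18, adjusted p = 0.00982). Neither gene's groups overlapped. The GTPase activator gene eIF5 had 61.5 and 60.5 RPKM in Orb2B cells, against 55.9 and 29.5 RPKM in background cells. Both Orb2B libraries were higher, but the background libraries were far apart (log2 difference 0.58, SE 0.28, adjusted p = 0.145). The scanning factor eIF-1A differed by -0.16.

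The fit was repeated with 1 library left out, in which the other group alone gives the spread and the lone library is assumed to vary like it. Without Orb2B replicate 1, eIF-4B was the only one of the 6 genes still called, and without Orb2B replicate 2, eIF-4B, eIF5B and eIF6 were. Without background replicate 2, all but eIF2B-delta were still called, and without background replicate 1 all 6 were.

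The second comparison asked how the members' mRNAs divided between the b-isox pellet and the supernatant of head extract. The members lay on the supernatant side of the median feature. The most abundant elongation and helicase genes, Ef1gamma, Ef2b, eIF-4a and Ef1beta, were lower in pellets by 2.51 to 2.95 times, and genes of eIF2, eIF2B and eIF3 subunits by 1.64 to 1.99 times. Of 28 members tested, 0 were higher and 9 lower in pellets (limma, adjusted p under 0.05), while over all 8720 features 1.97% were higher and 1.77% lower. At an unadjusted p under 0.05, 0 members were higher and 17 lower, against 11.7% and 10.9% of all features. At the adjusted threshold in either direction 3.74% of all features were called, so the share of members lower was above the background while the share higher was not. With the replicate number as a block 14 members were lower and 0 higher, against 7.56% and 6.98% of all features. All 4 pellets lay below all 4 supernatants for 13 members, where 7.86% of all features did so, and the 9 called genes were among them. No member had all pellets above all supernatants, where 8.12% of all features did. The median log2 difference was -0.62 over the members tested and -0.01 over all features tested, and 24 of 28 members were negative.

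These differences are relative to the median feature, because each library was scaled to it. Pellet factors were 1.27 to 1.65 and supernatant factors 0.665 to 0.737, so on deposited FPKM the median feature was higher in pellets by 0.87 on the log2 scale and the median member by 0.36. On deposited values 5 of 28 members were negative, 1 was called lower (Ef1gamma) and 7 were called higher (eIF-5A, eIF2B-alpha, eIF2B-beta, eIF2B-delta, eIF4AIII, eIF4E-4 and eIF5). Over all 8720 features on that scale, 4526 were called higher and 40 lower, so the share of members higher did not exceed the background. Every direction below is read against that shift.

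**Figure D2:**
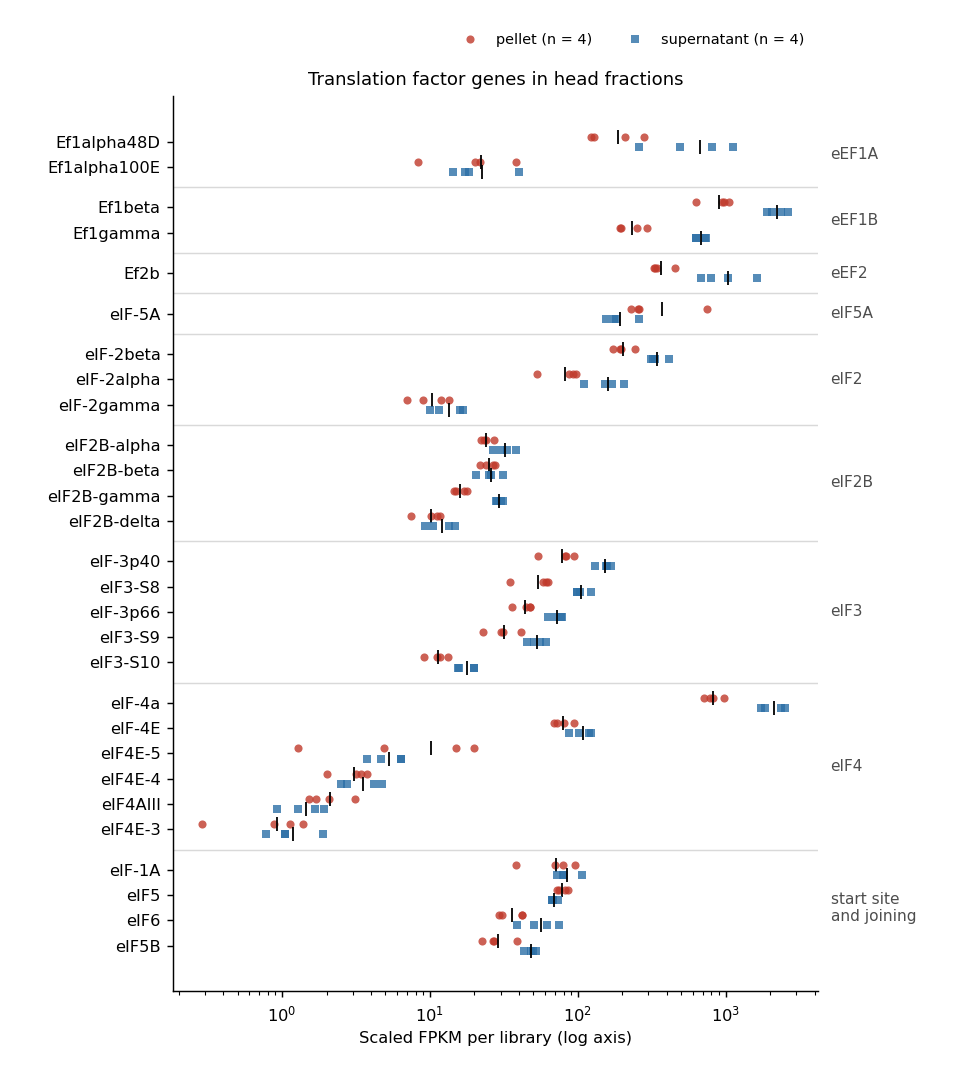
Scaled FPKM (log axis) of the 28 tested translation factor genes in each head library, with 4 pellets as circles above 4 supernatants as squares and the mean of each fraction as a vertical bar. Relative to the median feature, pellets lie below supernatants without overlap for 13 genes, among them Ef1beta, Ef1gamma, Ef2b, eIF-4a and all 5 eIF3 genes, while on deposited values 5 of 28 genes are lower on average.

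Both eEF1B genes were lower in pellets. Ef1gamma (chr3R:25045888-25047831), a subunit of the exchange complex, had 194, 251, 196 and 292 FPKM in pellets, against 626, 632, 722 and 738 FPKM in supernatants. The fractions were far apart, with a log2 difference of -1.56 (SE 0.17, limma adjusted p = 0.00301). Ef1beta (chr2R:12755727-12756783), the subunit that exchanges GDP for GTP, had 1046, 976, 628 and 947 FPKM in pellets, against 2653, 1888, 2047 and 2347 FPKM in supernatants (log2 difference -1.33, SE 0.19, adjusted p = 0.0104). Ef2b, joined in 1 library with the small RNA gene snmRNA:254, had 328, 343, 332 and 453 FPKM in pellets, against 1625, 680, 792 and 1036 FPKM in supernatants. Supernatant replicate 1 was the highest, and the log2 difference was -1.43 (SE 0.27, adjusted p = 0.0288).

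The eEF1A genes did not pass. Ef1alpha48D had 122, 282, 209 and 128 FPKM in pellets, against 1114, 489, 806 and 258 FPKM in supernatants. The pellet was lower in each of the 4 numbered pairs, with log2 differences of -3.18 to -0.79, but pellet replicate 2 exceeded supernatant replicate 4. The log2 difference was -1.73 (SE 0.48), with adjusted p = 0.0908 and 0.0648 with the block. Ef1alpha100E had 8.25, 20.1, 38.4 and 21.8 FPKM in pellets, against 14.4, 17.2, 40.1 and 18.4 FPKM in supernatants, with full overlap (log2 difference -0.10, SE 0.48). The difference between the copies was not tested. The gene eIF-5A went the other way in 3 of 4 pairs, with 229, 261, 256 and 742 FPKM in pellets, against 180, 154, 261 and 177 FPKM in supernatants. Pellet replicate 4 stood apart, and the log2 difference of 0.79 (SE 0.38) did not pass (adjusted p = 0.265).

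The eIF2 genes were lower on average in all 3 cases. eIF-2beta (chr3L:12518190-12519837) had 243, 194, 197 and 174 FPKM in pellets, against 322, 412, 333 and 310 FPKM in supernatants, without overlap (log2 difference -0.77, SE 0.16, adjusted p = 0.0371). eIF-2alpha had 96.9, 86.9, 53.1 and 92.8 FPKM in pellets, against 171, 205, 110 and 154 FPKM in supernatants. It was not called without the block (log2 difference -0.96, adjusted p = 0.0888) and was called with it (adjusted p = 0.0212). The feature of eIF-2gamma shares its first exons with Su(var)3-9 in the fly and had a log2 difference of -0.38 (adjusted p = 0.410).

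Of the 4 eIF2B subunits tested in heads, the catalytic subunit eIF2B-gamma (chr2R:11430175-11432070) was lower. It had 17.7, 14.9, 14.5 and 17.1 FPKM in pellets, against 31.3, 30.4, 27.8 and 28.4 FPKM in supernatants, with little spread in either fraction (log2 difference -0.86, SE 0.14, adjusted p = 0.0150). The subunit eIF2B-alpha, first by the mean over both fractions but not in pellets, had 27.1, 24.0, 22.1 and 23.1 FPKM in pellets, against 33.0, 38.1, 26.6 and 30.4 FPKM in supernatants. The highest pellet just exceeded the lowest supernatant, and the log2 difference of -0.40 did not pass (adjusted p = 0.193). eIF2B-beta and eIF2B-delta differed by -0.03 and -0.23.

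All 5 eIF3 members had every pellet below every supernatant. eIF-3p40 (chr2L:5051193-5053094), read with its neighbour CG9121, had 93.9, 83.3, 53.4 and 82.2 FPKM in pellets, against 157, 167, 131 and 155 FPKM in supernatants (log2 difference -0.98, SE 0.20, adjusted p = 0.0363). In pellet replicates 3 and 4 the gene had an entry of its own, with CG9121 listed at 0. In the other libraries, all supernatants among them, it was a joined entry. These values are therefore not on the same scale, and the log2 difference includes both kinds. eIF-3p66 had 44.6, 47.8, 36.0 and 47.7 FPKM in pellets, against 71.3, 78.3, 62.7 and 76.6 FPKM in supernatants (log2 difference -0.71, SE 0.16, adjusted p = 0.0480). The eIF3c gene eIF3-S8 (chr2R:13553183-13556749), read with CG30108 and CG30109, had 58.0, 61.1, 34.8 and 62.6 FPKM in pellets, against 98.6, 104, 122 and 98.1 FPKM in supernatants. Its log2 difference was -0.99 (SE 0.21, adjusted p = 0.0472), and with the block the adjusted p was 0.0547. In pellet replicate 3 these genes formed a single joined entry, while in the other libraries separate entries were summed. The value of 34.8 FPKM is therefore not on the scale of the others, and the log2 difference includes it. In the libraries where eIF3-S8 had an entry of its own, that entry had 32.9 to 35.9 FPKM in 3 pellets and 63.9 to 69.4 FPKM in 4 supernatants.

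The core subunits eIF3b and eIF3a were called with the block only. eIF3-S9 (eIF3b) had 31.0, 30.4, 23.0 and 41.3 FPKM in pellets, against 50.4, 55.9, 45.6 and 61.3 FPKM in supernatants (log2 difference -0.77, adjusted p = 0.0806, and 0.0250 with the block). In supernatant replicate 3 the interval deposited with its value of 30.8 FPKM ran from 0 to 704 FPKM, so that estimate is poor. eIF3-S10 (eIF3a) had 13.2, 11.2, 9.18 and 11.8 FPKM in pellets, against 19.9, 19.8, 15.5 and 15.7 FPKM in supernatants (log2 difference -0.62, adjusted p = 0.0933, and 0.0353 with the block). The subunits under other names were Trip1 (read with its neighbour Scox), Int6, CG9769 and Adam, with log2 differences of -0.62, -0.63, -0.94 and -0.52. CG9769 alone passed (103 ± 17.9 FPKM in pellets and 197 ± 16.4 FPKM in supernatants, SD, n = 4 each, adjusted p = 0.0202), and the other three passed with the block.

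**Figure D3:**
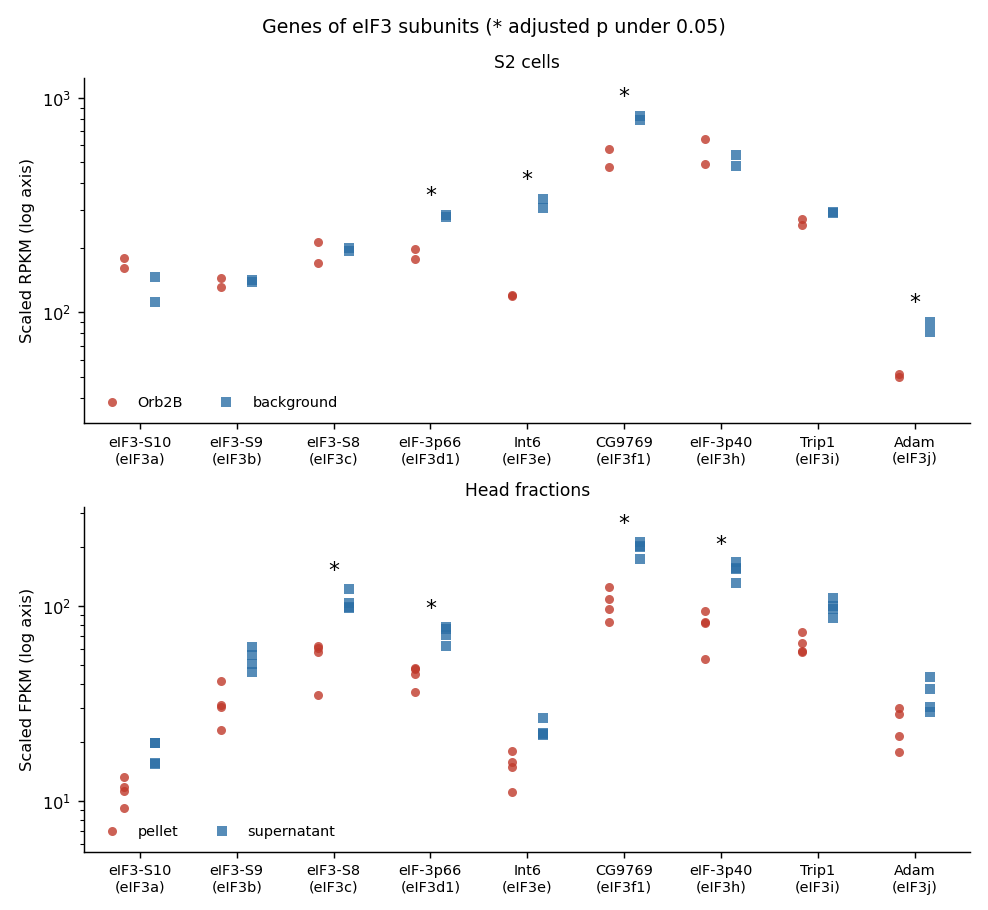
Scaled RPKM in S2 cells (upper panel) and scaled FPKM in heads (lower panel), both on log axes, for 9 genes of eIF3 subunits, with Orb2B or pellet libraries as circles left of background or supernatant libraries as squares and an asterisk where the adjusted p was under 0.05. In S2 cells eIF-3p66, Int6, CG9769 and Adam are lower in Orb2B cells, and in heads pellet means are lower for all 9 genes relative to the median feature, although the means of all 9 turn higher in pellets on deposited values.

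Within the eIF4 group the helicase gene stood out in level and difference. eIF-4a (chr2L:5981764-5985871) had 784, 716, 822 and 978 FPKM in pellets, against 1721, 1830.4, 2358 and 2506 FPKM in supernatants (log2 difference -1.34, SE 0.17, adjusted p = 0.00556). The fractions did not overlap, and the log2 difference was -1.52 to -1.13 in the 4 pairs. eIF-4E, read with CG4022, had 94.9, 80.2, 68.6 and 72.4 FPKM in pellets, against 119, 122, 87.4 and 102 FPKM in supernatants. The ranges of that joined feature overlapped slightly (log2 difference -0.44, adjusted p = 0.183, and 0.0480 with the block). The entry of eIF-4E alone had 32.0 to 50.6 FPKM in 4 pellets and 59.0 to 83.8 FPKM in 3 supernatants, which did not overlap and were not tested. eIF4AIII was higher in the pellet of all 4 pairs, at a level near the minimum for a test, with 1.53, 3.13, 1.70 and 2.08 FPKM in pellets against 1.28, 1.93, 1.67 and 0.928 FPKM in supernatants. Its log2 difference of 0.41 did not pass (adjusted p = 0.397). The paralogs eIF4E-3 and eIF4E-4 had log2 differences of -0.28 and -0.17, neither called. The joined feature of CG32365 and eIF4E-5, which is not eIF4E-5 alone, differed by 0.38 and was not called.

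None of the 4 factors of start site choice and joining was called without the block. eIF5B had 26.5, 26.9, 38.6 and 22.6 FPKM in pellets, against 43.6, 52.5, 49.6 and 47.9 FPKM in supernatants. No pellet reached a supernatant (log2 difference -0.77, adjusted p = 0.0667, and 0.0399 with the block). eIF6, in a feature with ytr, had 41.7, 41.9, 29.4 and 30.8 FPKM in pellets, against 61.5, 75.0, 38.6 and 50.4 FPKM in supernatants. The pellet was lower in all 4 pairs (log2 difference -0.62, adjusted p = 0.181, and 0.0361 with the block). eIF-1A, first of these by the mean over both fractions though within the spread of eIF5, had 38.3, 95.2, 70.5 and 79.5 FPKM in pellets, against 72.7, 78.9, 106 and 80.2 FPKM in supernatants, with overlap. eIF5 was higher in the pellet of all 4 pairs, with a log2 difference of 0.19 that did not pass (SE 0.13, adjusted p = 0.420).

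With 1 library left out at a time, 3 to 7 members were lower, of which 3 to 6 were among the 9. Ef1beta, Ef1gamma and eIF-4a were called in all 8 of these fits, eIF2B-gamma in 5, Ef2b in 4, eIF-2beta, eIF-3p40 and eIF3-S8 in 1 each, and eIF-3p66 in 0. Without both libraries of replicate 1, 2, 3 or 4 the counts were 2, 2, 6 and 2, and Ef1gamma and eIF-4a were called each time.

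**Figure D4:**
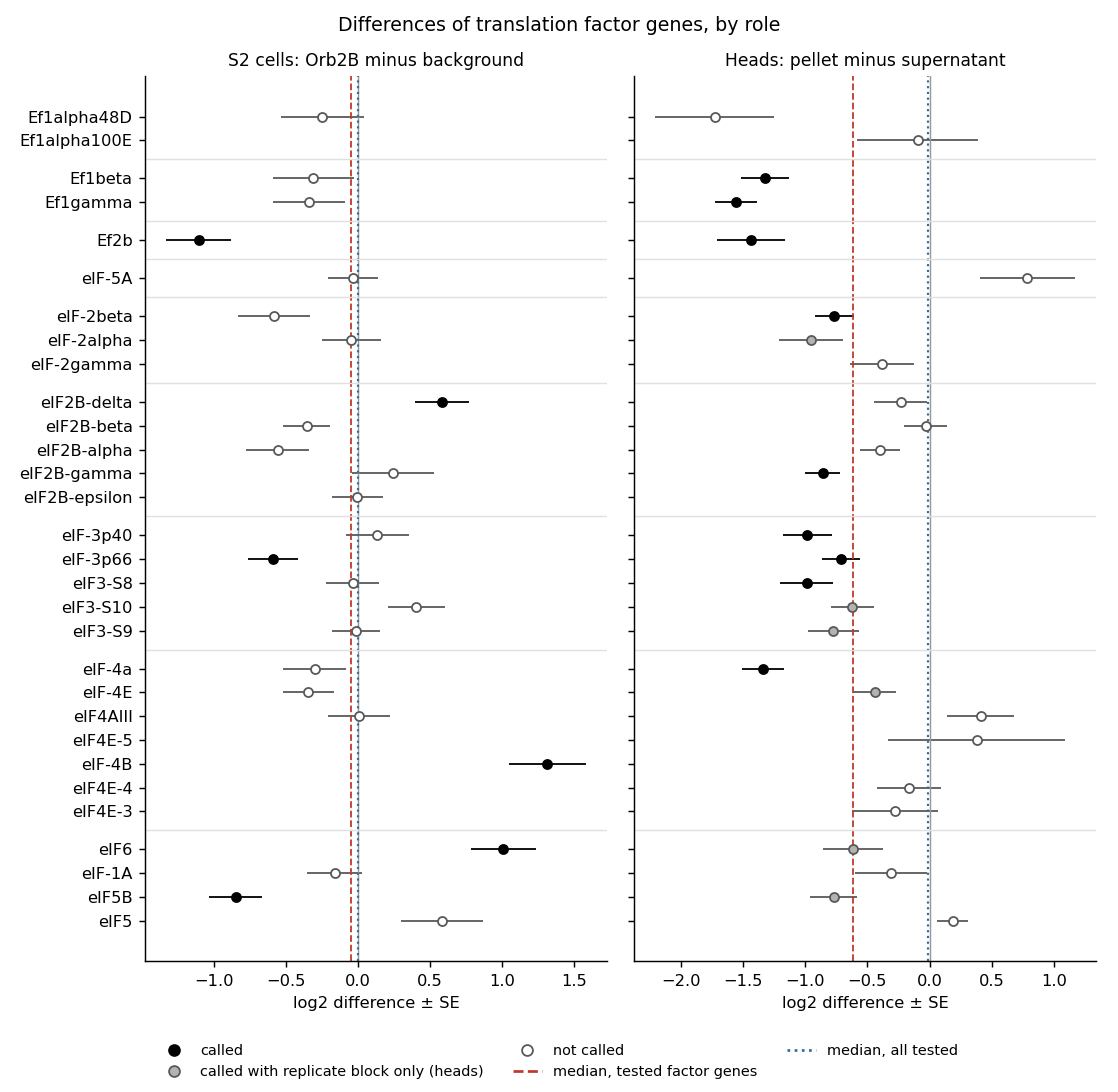
Log2 difference with its standard error for each tested translation factor gene, Orb2B minus background in S2 cells (left, n = 2 each) and pellet minus supernatant in heads (right, n = 4 each). Filled points passed the adjusted p of 0.05, grey points passed in heads with the replicate block only, and the dashed and dotted lines mark medians of -0.05 and -0.00 in S2 cells and of -0.62 and -0.01 in heads for the factor genes and for all tested features. Head differences are relative to the median feature, and on deposited values 5 of 28 are negative.

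The level of a member went with the size of its head difference. Among features with a mean of at least 100 FPKM, the 9 members had a median log2 difference of -1.33 and 6 were called lower, while all 780 such features had a median of -0.15 and 91 were called lower. Between 10 and 100 FPKM the medians were -0.44 for 15 members and -0.06 for 3151 features. Between 1 and 10 FPKM they were 0.11 for 4 members and 0.02 for 4654 features. Level and role cannot be told apart here, as the abundant members are elongation factors, eIF-5A, eIF-4a, the eIF2 subunits eIF-2beta and eIF-2alpha, and eIF-3p40.

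**Figure D5:**
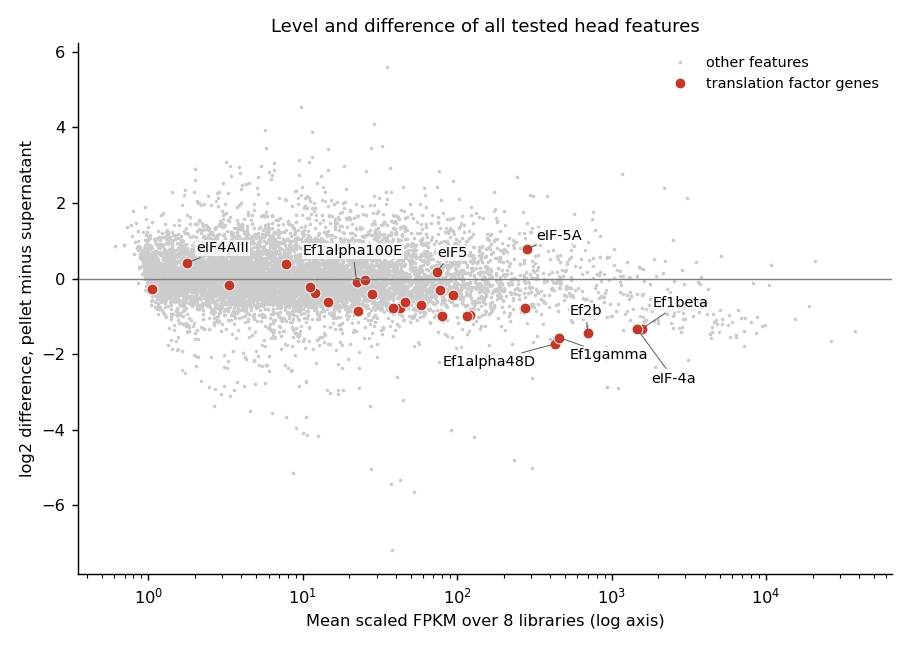
Mean scaled FPKM over 8 head libraries (log axis) against the log2 difference, pellet minus supernatant, for all 8720 tested features, with the 28 translation factor genes as large points. The abundant members Ef1gamma, Ef1alpha48D, Ef2b, eIF-4a and Ef1beta lie between -1.33 and -1.73 while eIF-5A lies at 0.79, all relative to the median feature, while on deposited values Ef1gamma was called lower, eIF-5A higher and the others were not called.

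Replicates 5 and 6 hold loci without gene names and were matched to members by position. In replicate 5, 27 members had a locus in both fractions. Their median log2 ratio of pellet to supernatant was -0.03 as deposited, against 0.10 over 6121 loci, and 23 of the 27 lay below that median of all loci. The 9 genes lower in pellets of replicates 1 to 4 were all among these 23, with a median of -0.40. Ef1gamma had 332 FPKM in the pellet and 714 FPKM in the supernatant of replicate 5, and eIF-5A had 897 FPKM in the pellet and 252 FPKM in the supernatant. In replicate 6 the match gave 12 members, with a median log2 ratio of 0.14 against 0.06 over 2930 loci. Of 3 lower genes matched there, Ef1gamma and Ef1beta lay below that median and eIF-2beta lay above it, with 442 FPKM in the pellet and 334 FPKM in the supernatant.

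Of 23 members tested in both systems, Ef2b and eIF-3p66 were called lower in Orb2B cells and in pellets. None was called higher in Orb2B cells and lower in pellets without the block. With the block in heads, eIF6 was lower in pellets (log2 difference -0.62) and higher in Orb2B cells (1.01). eIF5B was negative in both, at -0.85 in S2 cells and -0.77 in heads. The systems share no library.

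Genes around the factors were read from the same fits, from a list of 38 genes of related subunits, release and recycling, cap and poly(A) regulation, eIF2 kinases and growth signalling. In S2 cells 34 were tested, 6 were higher and 8 lower, a share close to the 17.0% and 19.9% of all genes, so the genes below are given by their values alone. Besides Int6, the 7 with the smallest p were pix, S6k, Gcn2, Rheb, cup, crc and Lk6. The ribosome recycling factor pix had 50.7 ± 2.09 RPKM in Orb2B and 126 ± 8.17 RPKM in background cells. Gcn2, the eIF2 kinase of amino acid shortage, had 2.42 ± 0.192 RPKM in Orb2B and 6.90 ± 0.648 RPKM in background cells, and crc, the fly ATF4 translated under eIF2 phosphorylation, was lower by 1.03 on the log2 scale. The eIF4E-binding repressor cup was also lower, at 9.56 ± 2.47 RPKM in Orb2B and 23.1 ± 0.211 RPKM in background cells. The ribosomal protein kinase gene S6k had 166 ± 5.89 RPKM in Orb2B and 70.0 ± 9.40 RPKM in background cells. Lk6, the kinase of eIF4E, had 212 ± 25.7 RPKM in Orb2B and 99.1 ± 26.3 RPKM in background cells, while Rheb, the activator of TOR, had 21.4 ± 0.659 RPKM in Orb2B and 42.2 ± 1.38 RPKM in background cells (SD, n = 2 each).

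In heads 32 of the related genes were tested, and 1 was higher and 1 lower in pellets, against 1.97% and 1.77% of all features. The insulin receptor gene InR was higher, with 22.7 ± 5.49 FPKM in pellets and 6.72 ± 1.26 FPKM in supernatants (SD, n = 4 each, log2 difference 1.67, adjusted p = 0.00737), and the lower one was CG9769. The median over the 8 related factor subunits tested was -0.51, and over 6 genes of cap and poly(A) regulation it was 0.47, with 0 called. With the block 4 of the 32 were higher and 6 lower, against 6.98% and 7.56% of all features, and 2 of the higher ones were of the cap and poly(A) group. Among other genes of the translation machinery, cytoplasmic ribosomal protein genes had a median of -1.01 with 58 of 84 lower in pellets. Aminoacyl-tRNA synthetase genes had a median of -0.30 with 1 of 19 lower. Over all head features 1.77% were lower. In S2 cells the same gene groups had 1 higher and 9 lower of 82, and 5 higher and 4 lower of 21, where 17.0% of all genes were higher and 19.9% lower. The difference of the factor genes from either group was not tested.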

How the data were processed

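RNA of 4 S2 libraries and 12 head libraries was used, and the CLIP samples of S2 cells were not analysed here. The authors deposited RPKM per gene for S2 cells and FPKM per gene or assembled locus for heads, per the file headers. Per the submitters' processing notes the build was dm3 and the tools were CASAVA 1.9.1, Bowtie, cutadapt and Novoalign for S2 cells and CASAVA 1.9.1, TopHat and Cufflinks for heads. Genes joined in any head library were merged and their FPKM summed, which gave 14410 features with a value in all 8 libraries of replicates 1 to 4. FPKM is per length, so a joined entry and a sum of separate entries are not on the same scale. Of the 32 head members 7 lay in a feature of several genes.

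A scaling factor was taken for each library, the median ratio of its genes to their geometric means over libraries, and values were divided by it. The test was limma (version 3.58.1, R 4.3.3), two-sided, with a trend of variance on mean, applied to the log2 of the scaled value plus 0.5. It covered genes whose deposited mean reached 1, and p-values were adjusted by Benjamini-Hochberg over the whole table. Differences on this scale understate changes of low genes. The procedure was tested on simulated data. Tables were handled in Python 3.11.15 (numpy 2.4.6, pandas 2.3.3) and drawn with matplotlib 3.10.9. The 31 S2 members matched RefSeq symbols, and RefSeq coordinates were not used. Coordinates span a gene's own entries over the head libraries.

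Values per library are given for members called in a fit and for the most abundant member of each role. Related genes are named where called, up to 8 by smallest p. The gene l(2)not of the related list was left out as no translation factor. The members, lists and most choices were made with earlier results of these data known. A pellet and the supernatant of its number deviated together from their group means, with correlations across genes of 0.166, 0.191, 0.326 and 0.196, so the numbers were taken to pair them. What a number stands for is not in the labels, and differently numbered libraries correlated at up to 0.143. For the 23 members at a mean of at least 10 with an entry of their own, the bounds of the intervals deposited with the FPKM lay at a median of at most 7.37% of the value away from it. Alternatives were pseudocounts of 0.1 and 1, no filter, a minimum of 5, deposited values, quantile normalization, the replicate block, no trend, a log2 change of at least 1, each library left out, exact 0 as missing, single-gene features only, and the addition of replicates 5 and 6 through loci with a reciprocal overlap of 50% or more. Leaving out both fractions of a replicate was added after seeing the data.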

Additional observations from a re-analysis of the deposited data

Results flagged for a closer look

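In 5 of 56 groups of 4 head libraries, 1 library lay apart from the other three by a Dixon test, which flags about 1 in 20 groups by chance. Ef2b had 453.2 FPKM in pellet replicate 4, above 327.6 to 343.3 FPKM in the other pellets, and eIF3-S8 had 34.83 FPKM in pellet replicate 3, below 58.02 to 62.55 FPKM in the others. That eIF3-S8 value is of a single entry joined with CG30108 and CG30109, while the others are sums of separate entries, so they are not on the same scale. The gene's own entry had 32.9 to 35.9 FPKM in the other 3 pellets. The gene eIF-5A had 741.6 FPKM in pellet replicate 4, above 229.2 to 260.8 FPKM in the other pellets. Ef1alpha100E had 40.1 FPKM in supernatant replicate 3, above 14.43 to 18.4 FPKM in the other supernatants. The tightest group was eIF5, with 73.09 FPKM in supernatant replicate 2 and 67.02 to 67.76 FPKM in the others.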

How the results depend on the processing

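In S2 cells the count of members higher stayed at 2 to 4 and that of members lower at 3 to 5 under the alternatives that kept all libraries, apart from a log2 change of at least 1, which gave 1 lower member and 1395 of 2611 genes. No numbering of the S2 libraries is known to pair them (correlation of same-numbered libraries 0.050), and with the replicate block 4 members were higher and 5 lower, beside 1429 and 1611 of 7072 genes, the added ones being eIF5, eIF2B-alpha and eIF-2beta. Leaving out 1 library gave 1 to 6 higher members, 0 to 6 lower members and 1255 to 3334 genes called. Of members that were not called, Ef1alpha48D turned to 0.034 under quantile normalization. With 1 library left out, eIF-3p40 ranged over -0.039 to 0.34 and eIF-5A over -0.13 to 0.065.

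In heads the replicate block gave 14 lower members and 1268 features called, against 9 and 326 without it, and a log2 change of at least 1 gave 4 and 207. Deposited values gave 7 higher members, 1 lower member and 4566 features. Replicates 5 and 6 joined gave 2 lower members of 11 tested and 159 features. Leaving out 1 library gave 3 to 7 lower members and 137 to 305 features. Without replicate 1, 2, 3 or 4 of both fractions there were 2, 2, 6 and 2 lower members and 66, 77, 209 and 87 features. On deposited values, by the construction of the scaling, log2 differences turned positive for eIF3-S8 (0.0063), eIF-4E (0.56), eIF-3p40 (0.015), eIF-1A (0.69), eIF-2alpha (0.044), eIF-2beta (0.23), eIF-3p66 (0.28), eIF2B-alpha (0.59), eIF2B-gamma (0.12), eIF3-S10 (0.35), eIF3-S9 (0.22), eIF5B (0.22) and eIF6 (0.37). With replicates 5 and 6 joined, eIF-1A was at 0.028. With 2 libraries per S2 group and unknown depth in heads, a member that was not called is not shown to be unchanged.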
